A study of Homo sapiens with 8 samples.

Results

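The genes described here supply, build, recycle and spend glutathione, or shape the lipids that are oxidised in ferroptosis. They were taken by symbol, as the rows of the deposited values whose Ensembl identifier maps to SLC7A11, GPX4, GCLC, GCLM, GSS, GSR, AIFM2, ACSL4, LPCAT3 or ALOX5. All 10 were found among 63241 identifiers.

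The cells are those of HepG2 and Huh7, lines grown from human liver tumours. The study set parental, sorafenib-sensitive cells of each line (WT) against resistant cells (SR) raised from them under rising doses of sorafenib, a kinase inhibitor. Sequencing of polyadenylated RNA gave 8 libraries, 2 for each line and status, deposited as FPKM (fragments scaled by transcript length and library size). The question is whether this defence differs between SR and WT cells. Labels give the treatment of WT cells as control and that of SR cells as sorafenib, so resistance and the presence of the drug cannot be told apart, and they give no dose or time. All libraries carry the same batch label. Nothing says that replicates came from separate cultures, so p-values measure only the spread between these samples, which may be technical.

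FPKM hold no read totals. Steps between low values gave estimates of 39350000 and 27700000 reads for HepG2 WT replicates 1 and 2, with 47700000 and 45500000 for HepG2 SR. Estimates for Huh7 were 54500000 and 44100000 reads in WT, against 41800000 and 46000000 in SR. Within 0.02 of a whole read lay between 9.31% and 14.9% of the low values, where chance gives 4%, so these depths are approximate.

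Expression went against the labelled cell line in some libraries. Over genes, which do not count as replicates, Pearson's r of log2(FPKM + 1) was at least 0.914 among the 5 libraries Huh7 WT 2, Huh7 SR 2, HepG2 SR 1 and both of HepG2 WT. It was 0.965 between Huh7 WT 1 and Huh7 SR 1, and at most 0.783 between those and the 5 libraries. HepG2 SR 2 had r of at most 0.846 with any other library. Labels define every group, and each direction between SR and WT rests on them. Values without these 3 libraries are given for some of the comparisons of SR with WT.

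Markers of the labelled cell type were present, unevenly. Of 8 genes of the hepatocyte lineage, 8 stood at an FPKM of at least 1 in every HepG2 library and in Huh7 SR 2, and 7 in the other Huh7 libraries. Their summed FPKM was 4452, 5455, 5481 and 7617 in HepG2 WT 1, WT 2, SR 1 and SR 2, and 603, 1085, 796 and 5252 in the Huh7 libraries in the same order. ALB led the list in 6 libraries and FGB in Huh7 WT 1 and Huh7 SR 1. The 4 biliary or progenitor genes summed to between 308 and 904 FPKM in the 5 libraries that resemble each other, and to 15.5 FPKM in Huh7 WT 1 and 15.9 FPKM in Huh7 SR 1. HepG2 SR 2 had 65.3 FPKM, of which SOX9 made 54.1 FPKM, within its range in the 5 libraries. The other genes of this list, KRT19, EPCAM and KRT7, were each below their range in the 5 libraries. KRT19 was at 0.179 FPKM in HepG2 SR 2, against 155 FPKM or more in each of the 5 libraries. Fewer cells of a type and less RNA per cell cannot be told apart in bulk samples. The summed FPKM of 5 fibroblast genes was at most 8.93 and that of 3 endothelial genes at most 4.52.

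Ferroptosis is an iron-dependent form of cell death in which polyunsaturated phospholipids of membranes are oxidised until the membrane fails. Cells hold it back by importing cystine, turning its cysteine into glutathione, and using glutathione to reduce lipid peroxides, while a separate route regenerates ubiquinol, a lipid-soluble antioxidant. Liver cells hold large amounts of glutathione, and sorafenib has been studied as an agent that interferes with cystine uptake.

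SLC7A11, the transporter subunit of the cystine/glutamate exchanger system xc-, was the member most weakly expressed in most libraries after ALOX5. SLC7A11 (ENSG00000151012, chr4:138164097-138242349, minus strand, GRCh38) measured 2.59 and 1.44 FPKM in the HepG2 WT libraries, 5.31 and 7.09 in HepG2 SR. Huh7 gave 6.58 and 26.5 FPKM for WT, 7.91 and 4.19 for SR. Both HepG2 SR libraries were above both HepG2 WT libraries, whereas the Huh7 groups overlapped and Huh7 WT 2 was the highest of all 8. From limma on log2(FPKM + 1), the scale of every fold change here, the log2 fold change of SR versus WT was 1.27 (standard error 0.65, adjusted p = 0.956) in HepG2. In Huh7 it was -1.09 (standard error 0.65, adjusted p = 1.0). SLC7A11 was called in neither line, a call needing both an unadjusted p under 0.05 and a change of 0.5 or more on this log2 scale, up or down. This scale understates changes of weakly expressed genes. The HepG2 value was called, at 1.27, without Huh7 WT 1 and without Huh7 WT 2. The Huh7 value was -0.16 without Huh7 WT 2 and -2.02, and called, without Huh7 WT 1.

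The change of SLC7A11 differed between the lines by -2.36 (Huh7 minus HepG2, standard error 0.92, adjusted p = 1.0 from limma), and it was the 1 member of 9 tested that was called in this comparison. Of all 15173 genes tested, 0.606% were called, and 0 at an adjusted p under 0.05. The difference was negative in each of the 8 fits that leave out 1 library, but the call held in 2 of them, those without Huh7 WT 1 and without Huh7 SR 1. Without Huh7 WT 2 it was -1.43. Between libraries that resemble each other, SLC7A11 went both ways in Huh7 on the log2 scale. It was 0.23 for Huh7 SR 1 minus WT 1 and -2.4 for Huh7 SR 2 minus WT 2. HepG2 SR 1 minus the mean of HepG2 WT gave 1.09. With the replicate number as a block, 0 members were called for the difference between lines.

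SLC3A2, the heavy chain that carries SLC7A11 to the cell surface, was at 186 and 130 FPKM in HepG2 WT and 125 and 132 FPKM in HepG2 SR. In Huh7 it was at 152 and 636 FPKM in WT and at 106 and 98.6 FPKM in SR, so Huh7 WT 2 was the highest library for both subunits. The ratio of SLC7A11 to SLC3A2 was 0.0139 and 0.0111 in HepG2 WT and between 0.0416 and 0.0746 in the other 6 libraries. HepG2 WT thus stood below all other libraries in this ratio, while Huh7 WT 2, at 0.0416, lay close to Huh7 WT 1 and Huh7 SR 2.

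**Figure D1:**
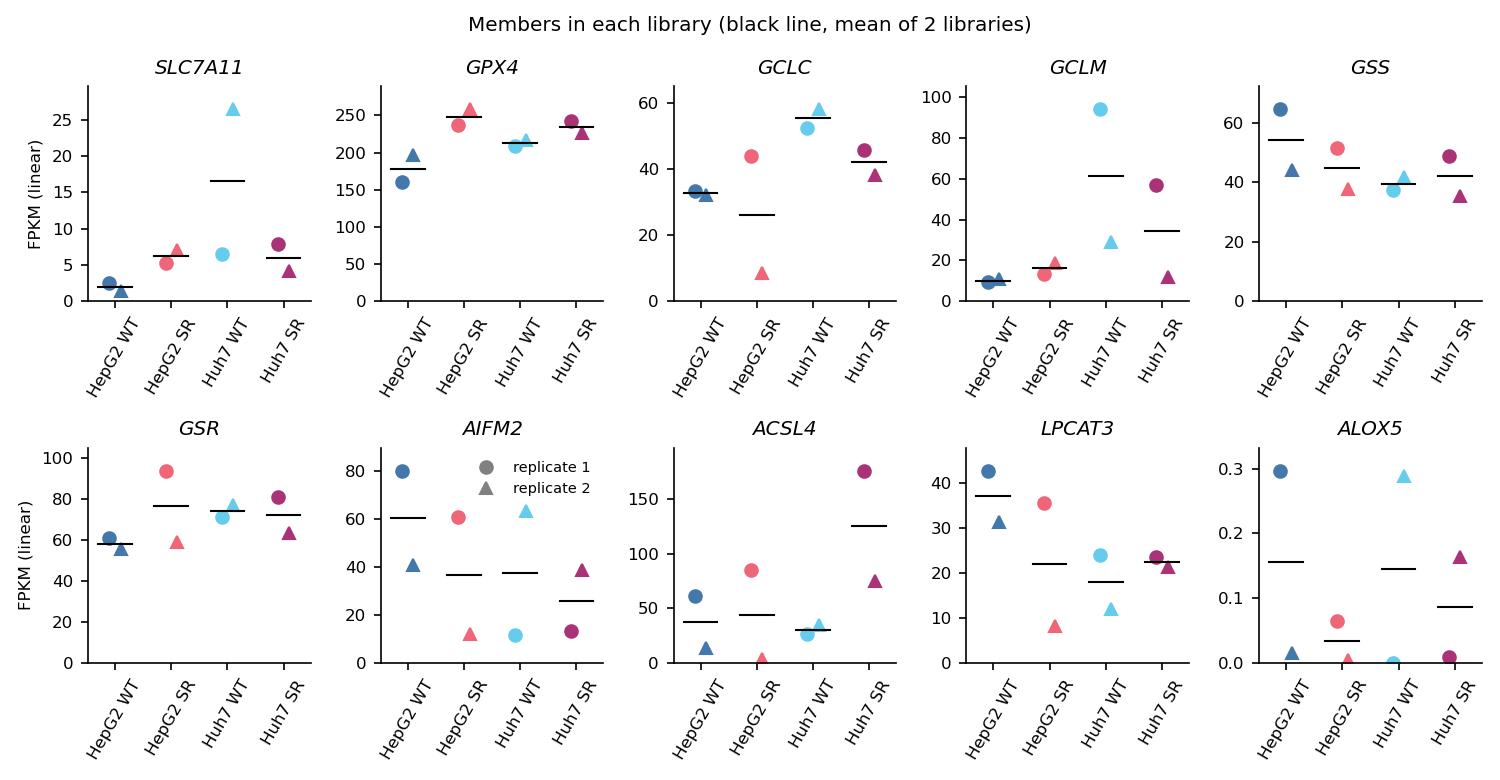
FPKM of the 10 members in each of the 8 libraries, on a linear axis from 0 with its own range for each gene; circles are replicate 1, triangles replicate 2, and black lines the mean of 2 libraries. GPX4 lies between 160 and 259 FPKM in all libraries, whereas ACSL4 spans 3.66 to 176 FPKM and differs widely within HepG2 SR.

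Glutathione is made in a pair of steps. GCLC is the catalytic subunit and GCLM the modifier subunit of glutamate-cysteine ligase, the rate-limiting enzyme, and GSS, glutathione synthetase, adds glycine. GCLC (ENSG00000001084, chr6:53497341-53616970, minus strand) measured 33.5 and 32.1 FPKM in the HepG2 WT libraries, 43.9 and 8.59 in HepG2 SR. Huh7 gave 52.4 and 58.1 FPKM for WT, 45.9 and 38.2 for SR. HepG2 SR 2 was the lowest library by far, and both Huh7 SR libraries were below both Huh7 WT libraries. The log2 fold change was -0.70 (standard error 0.67, adjusted p = 0.956) in HepG2 and -0.39 (standard error 0.67, adjusted p = 1.0) in Huh7. The HepG2 value was 0.41 without HepG2 SR 2 and -1.82, and called, without HepG2 SR 1. Over both lines it was -0.55 (standard error 0.47, adjusted p = 0.998), 0.01 without HepG2 SR 2 and -1.10, and called, without HepG2 SR 1. A long noncoding RNA gene, AL033397.1, overlaps GCLC on the same strand, at 0 to 11.1 FPKM across libraries.

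GCLM (ENSG00000023909, chr1:93885205-93909456, minus strand) measured 9.48 and 10.97 FPKM in the HepG2 WT libraries, 13.6 and 18.6 in HepG2 SR. Huh7 gave 93.9 and 28.8 FPKM for WT, 56.6 and 11.98 for SR. Both HepG2 SR libraries were above both WT libraries, and the Huh7 groups overlapped, with replicate 1 above replicate 2 in each. Between Huh7 libraries that resemble each other, SR was lower, by -0.72 on the log2 scale for SR 1 minus WT 1 and -1.20 for SR 2 minus WT 2. The log2 fold change was 0.60 (standard error 0.80, adjusted p = 0.957) in HepG2 and -0.96 (standard error 0.80, adjusted p = 1.0) in Huh7. Without Huh7 SR 2 the Huh7 value was 0.12, and without Huh7 SR 1 it was -2.04 and called.

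The balance of the ligase subunits followed neither status nor line as labelled. The ratio of GCLC to GCLM was 3.53 and 2.92 for HepG2 WT and 3.22 for HepG2 SR 1, while Huh7 WT 2 had 2.01 and Huh7 SR 2 had 3.19. HepG2 SR 2 had 0.462, Huh7 WT 1 had 0.558 and Huh7 SR 1 had 0.810. The catalytic subunit was thus above the modifier in the 5 libraries that resemble each other and below it in the other 3, in SR and WT alike.

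GSS (ENSG00000100983, chr20:34928433-34956027, minus strand) measured 64.5 and 44.0 FPKM in the HepG2 WT libraries, 51.5 and 37.9 in HepG2 SR. Huh7 gave 37.3 and 41.6 FPKM for WT, 48.8 and 35.3 for SR. Its log2 fold change was -0.27 (standard error 0.36) in HepG2 and 0.07 (standard error 0.36) in Huh7. GSR (ENSG00000104687, chr8:30678061-30727999, minus strand), glutathione reductase, returns oxidised glutathione to its reduced form with NADPH. It measured 61.2 and 55.5 FPKM in the HepG2 WT libraries, 94.1 and 59.1 in HepG2 SR. Huh7 gave 71.4 and 77.2 FPKM for WT, 81.2 and 63.4 for SR. HepG2 SR 1 was the highest, and the log2 fold change was 0.35 (standard error 0.35) in HepG2 and -0.05 (standard error 0.35) in Huh7. The HepG2 value of GSR was 0.02 without HepG2 SR 1 and 0.68 without HepG2 SR 2. For both genes SR and WT overlapped in each line.

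GPX4, the selenium-dependent peroxidase that reduces lipid hydroperoxides within membranes at the cost of glutathione, was the most abundant member in every library by FPKM. GPX4 (ENSG00000167468, chr19:1103926-1106791, plus strand) measured 160 and 197 FPKM in the HepG2 WT libraries, 238 and 259 in HepG2 SR. Huh7 gave 210 and 217 FPKM for WT, 243 and 227 for SR. All 4 SR libraries were above all 4 WT libraries, and GPX4 was the 1 member of 10 for which this held. The same was true of 1.52% of the genes tested, and of 0 members in the opposite direction, against 2.17% of genes. The log2 fold change was 0.48 (standard error 0.29, adjusted p = 0.956) in HepG2, 0.14 (standard error 0.29, adjusted p = 1.0) in Huh7 and 0.31 (standard error 0.21, adjusted p = 0.998) over both lines. GPX4 was called in none of these.

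The FPKM of all genes summed to between 384792 and 403905 in WT libraries and between 411763 and 429111 in SR libraries, so the scale itself differs with status. Rescaled to a common sum per library (TPM), GPX4 stood at 533 in Huh7 SR 2, below the 544 and 537 of Huh7 WT, and the groups overlapped. On that scale 0.936% of genes had all SR libraries above all WT libraries. With quantile normalization the Huh7 log2 fold change of GPX4 was -0.01.

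AIFM2, also known as FSP1, is an oxidoreductase that regenerates ubiquinol at the plasma membrane and so traps lipid radicals without glutathione. AIFM2 (ENSG00000042286, chr10:70098223-70132934, minus strand) measured 80.1 and 40.9 FPKM in the HepG2 WT libraries, 60.9 and 12.1 in HepG2 SR. Huh7 gave 11.7 and 63.2 FPKM for WT, 13.3 and 38.5 for SR. HepG2 SR 2, Huh7 WT 1 and Huh7 SR 1 were thus between 11.7 and 13.3 FPKM and the other 5 libraries at 38.5 FPKM or more, and SR and WT overlapped in each line. Its log2 fold change was -1.04 (standard error 1.03) in HepG2 and -0.26 (standard error 1.03) in Huh7, within the spread between replicates. Over both lines it was -0.65, and -0.31 without the 3 libraries that stand apart, and it ran from -1.23 without Huh7 WT 1 to -0.06 without Huh7 WT 2. The HepG2 value was 0.09 without HepG2 SR 2, and the Huh7 value was 0.91 without Huh7 WT 2 and 0.47 without Huh7 SR 1. H2AFY2 overlaps AIFM2 on the opposite strand, at up to 29.4 FPKM, and without strand reads of the 2 genes cannot be told apart.

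ACSL4 is the acyl-CoA synthetase that activates arachidonic and adrenic acid and so feeds polyunsaturated chains into phospholipids. Among the members it had the largest SD of log2(FPKM + 1) over the 8 libraries, at 1.65. ACSL4 (ENSG00000068366, chrX:109624244-109733403, minus strand) measured 61.5 and 14.0 FPKM in the HepG2 WT libraries, 84.7 and 3.66 in HepG2 SR. Huh7 gave 26.7 and 34.4 FPKM for WT, 176 and 75.2 for SR. HepG2 SR 2 was the lowest of all 8 libraries, and the other 3 SR libraries were each above every WT library. The highest library was 48.1 times the lowest.

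By group, the log2 fold change of ACSL4 was -0.61 (standard error 1.34, adjusted p = 0.976) in HepG2, 1.89 (standard error 1.34, adjusted p = 1.0) in Huh7 and 0.64 (standard error 0.95, adjusted p = 0.998) over both lines, and none was called. The HepG2 value was 1.49 without HepG2 SR 2, 0.42 without HepG2 WT 1 and -2.71, and called, without HepG2 SR 1. Over both lines it was 1.69, and called, without HepG2 SR 2, and -0.41 without HepG2 SR 1. In Huh7 it stayed between 1.28 and 2.50 in the 8 fits that leave out 1 library, in none of which it was called, and it was called when each line was fitted alone.

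Between libraries that resemble each other, ACSL4 was higher in SR each time. The difference in log2(FPKM + 1) was 2.68 between Huh7 SR 1 and Huh7 WT 1, 1.11 between Huh7 SR 2 and Huh7 WT 2, and 1.49 between HepG2 SR 1 and the mean of HepG2 WT. With the expression profile as a term (the 5 libraries, the Huh7 replicates 1, and HepG2 SR 2), the log2 fold change of SR versus WT was 1.73 (standard error 0.49, adjusted p = 0.478 from limma). It passed the unadjusted threshold, the 1 member of 9 tested that did, where 8.21% of all genes passed and 0 had an adjusted p under 0.05. In that fit HepG2 SR 2 has a term of its own and adds nothing to the estimate. Without the 3 libraries that stand apart, it was 1.30 (standard error 0.76, adjusted p = 0.577) and was not called. Profiles were drawn from expression and are not conditions of the study.

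LPCAT3, a lysophospholipid acyltransferase, takes the next step and inserts the activated polyunsaturated chains into phospholipids. LPCAT3 (ENSG00000111684, chr12:6976186-7018510, minus strand) measured 42.7 and 31.3 FPKM in the HepG2 WT libraries, 35.5 and 8.26 in HepG2 SR. Huh7 gave 24.0 and 11.9 FPKM for WT, 23.6 and 21.4 for SR. SR and WT overlapped in both lines, and HepG2 SR 2 was again the lowest. The log2 fold change was -1.03 (standard error 0.67) in HepG2 and 0.39 (standard error 0.67) in Huh7. The HepG2 value was -0.04 without HepG2 SR 2 and -2.02, and called, without HepG2 SR 1, and the Huh7 value was -0.09 without Huh7 WT 2. EMG1, at 12.7 to 22.2 FPKM, and C1S, at 3.30 to 24.4 FPKM, overlap LPCAT3 on the opposite strand.

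HepG2 SR 2 was the lowest library for both ACSL4 and LPCAT3. In Huh7 SR 1, ACSL4 was at its highest and LPCAT3, at 23.6 FPKM, was close to its value in Huh7 WT 1. The ratio of GPX4 to ACSL4, the peroxidase over the enzyme that supplies its substrates, was 2.61 and 14.1 in HepG2 WT and 2.81 and 70.7 in HepG2 SR. In Huh7 it was 7.85 and 6.30 in WT and 1.38 and 3.01 in SR. Both Huh7 SR libraries were below both Huh7 WT libraries, while HepG2 SR held both a low value and the highest of all.

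ALOX5, an arachidonate lipoxygenase best known from leukocytes, oxidises free and esterified polyunsaturated fatty acids. ALOX5 (ENSG00000012779, chr10:45374176-45446119, plus strand) was between 0 and 0.297 FPKM. It did not pass the filter of at least 1 FPKM in at least 2 libraries, so it was not among the 9 members tested. It measured 0.297 and 0.0159 FPKM in the HepG2 WT libraries, 0.0652 and 0.00378 in HepG2 SR. Huh7 gave 0 and 0.289 FPKM for WT, 0.00856 and 0.164 for SR. With no filter, its log2 fold change was -0.15 (standard error 0.17) in HepG2 and -0.07 (standard error 0.17) in Huh7. Levels this low do not show a difference between groups at this depth. Of the 5 leukocyte markers, PTPRC and CD3E were at or below 0.0415 FPKM in every library and SPI1 at or below 0.159 FPKM. CD14 ran from 0.0575 FPKM in Huh7 WT 2 to 6.27 FPKM in HepG2 SR 2, with 5.76 FPKM in HepG2 WT 2. CD68 ran from 3.94 to 29.05 FPKM. The summed level of the list was 20.8 and 13.3 FPKM for the HepG2 WT libraries, 15.4 and 14.3 for HepG2 SR, 4.19 and 29.2 for Huh7 WT and 4.45 and 7.46 for Huh7 SR, with CD68 its most abundant gene in each. The part of leukocyte RNA in ALOX5 was not tested.

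Taking the 9 tested members together, 0 were called in HepG2 SR versus WT, where 2.14% of 15173 genes were, and 0 in Huh7, where 1.87% were. Over both lines 0 were called, where 3.93% of genes were. At an adjusted p under 0.05, limma called 0 genes in any of these comparisons, and 325, 283 and 597 genes had an unadjusted p under 0.05. Each count is a smaller share of the genes tested than the 0.05 that chance alone would give. The spread in these fits includes that between replicates of unlike profile. With profile as a term, 1430 genes had an unadjusted p under 0.05 over both lines. The absence of calls thus does not show that the members were unchanged. In HepG2, both SR libraries were above both WT libraries for SLC7A11, GPX4 and GCLM, 3 of 10 members, against 18.1% of genes, and below for 0 members, against 20.1% of genes. In Huh7 they were above for GPX4 and ACSL4, against 9.06% of genes, and below for GCLC alone, against 12.9%. These shares are small numbers of genes read against a broad background, and no member stood clear of it.

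**Figure D2:**
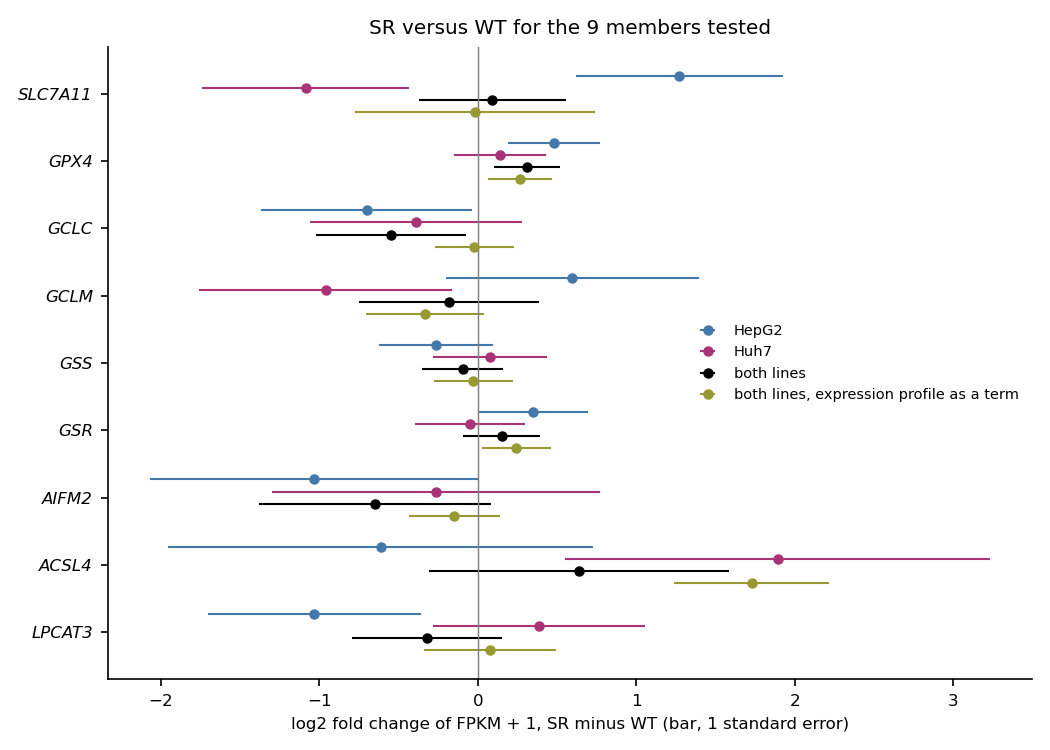
Log2 fold change of FPKM + 1 between SR and WT for the 9 members tested, from limma, in HepG2, in Huh7, over both lines and over both lines with expression profile as a term; bars are 1 standard error. In HepG2 and Huh7 alike no member was called, and ACSL4 at 1.73 was called with the profile term.

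Between the lines as labelled, GCLM was higher in Huh7 than in HepG2 by 1.47 (standard error 0.57, adjusted p = 0.813 from limma) and SLC7A11 by 1.11 (standard error 0.46, adjusted p = 0.813). They were the 2 of 9 members called, where 4.90% of genes were called and 0 at an adjusted p under 0.05. All 4 Huh7 libraries did not exceed all 4 HepG2 libraries for either gene. GCLM at 11.98 FPKM in Huh7 SR 2 lay below HepG2 SR, and SLC7A11 at 4.19 FPKM in Huh7 SR 2 likewise. The call of GCLM held in 2 of the 8 fits that leave out 1 library, those without Huh7 WT 2 and without Huh7 SR 2, and was 0.93 without Huh7 SR 1. The call of SLC7A11 held without Huh7 WT 1 and without Huh7 SR 2, and was 0.64 without Huh7 WT 2. Only 1 member was called with a filter at 0.1 FPKM, with no filter, with quantile normalization or with the replicate number as a block. Since 2 of the Huh7 libraries resemble those of HepG2, the labelled line and the profile are mixed in this comparison.

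The members differed in the library in which they stood out. By mean FPKM, groups ran from Huh7 WT down through HepG2 SR and Huh7 SR to HepG2 WT for SLC7A11, and from HepG2 SR through Huh7 SR and Huh7 WT to HepG2 WT for GPX4. For ACSL4 they ran from Huh7 SR through HepG2 SR and HepG2 WT to Huh7 WT, and all 3 neighbouring pairs overlapped. For GCLC they ran from Huh7 WT through Huh7 SR and HepG2 WT to HepG2 SR, and only the last pair overlapped. Group means and their SD for ACSL4 were 37.7 ± 33.6 for WT and 44.2 ± 57.3 FPKM for SR cells of HepG2, and 30.5 ± 5.42 for WT and 126 ± 71.3 FPKM for SR cells of Huh7 (SD, n = 2 each). Those of GPX4 were 178 ± 25.6, 248 ± 14.7, 213 ± 5.05 and 235 ± 11.7 FPKM (SD, n = 2 each) in the same order.

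For each tested member with an SD of at least 0.5 on the log2 scale over the 8 libraries, the genes of most similar pattern were found by the smallest root mean square difference of mean-centred log2(FPKM + 1) over 8 libraries. Those nearest to SLC7A11 were SLC33A1, at 0.35, and SNHG17, at 0.44. SLC33A1 stood at 26.0 FPKM in Huh7 WT 2 and between 3.67 and 7.06 FPKM elsewhere. GCLC was nearest to CUL4A and ARHGEF7, at 0.19 and 0.24, and GCLM to NFKB2 and GAREM1, at 0.22 and 0.26. AIFM2 was nearest to AEN and NAGS, at 0.18 and 0.20, and LPCAT3 to NXN and DTX4, at 0.20 and 0.25. The genes nearest to ACSL4 among 15173 tested, MYH14 and S100A14, were further from it, at 0.82 and 0.87. This distance is not scaled for spread, which was largest for ACSL4. It therefore does not show how many genes shared the shape of its pattern.

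Promoters were available for 6 of the 10 members, with 250 bases before and 50 after each start. They were searched on both strands for TGACNNNGC, the core of the antioxidant response element bound by the NRF2 factor, and for TGATGNAA, an amino acid response motif. The first was in the promoters of GCLM and AIFM2, as in 13.3% of 35116 promoters of that length, and the second in those of none of the 6, as in 3.62% of promoters. The matches are shown because these members had wide but unlike patterns across libraries. Capitals mark the core as it reads on the gene's strand, in reverse. The sequences are from RefSeq (GRCh38.p14) and end at or before the start used for each promoter. They lie at chr1:93909431-93909494 for GCLM and chr10:70132826-70132877 for AIFM2, both on the minus strand. The gene spans given above, from GENCODE, begin further upstream. Those spans hold the whole AIFM2 sequence and part of the GCLM sequence.

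GCLM: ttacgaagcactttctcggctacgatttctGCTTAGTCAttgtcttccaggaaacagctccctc

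AIFM2: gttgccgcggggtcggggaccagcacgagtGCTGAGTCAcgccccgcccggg

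GCLM and AIFM2, which share this core, did not share a pattern: GCLM was highest in Huh7 WT 1 and Huh7 SR 1, where AIFM2 was near its lowest. A match is a run of letters in this window, not evidence of binding.

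The wider pathway was read through 6 lists of 120 genes, of which 114 were tested. In HepG2, 3 list genes were called higher in SR and 1 lower, 3.51% of those tested, and in Huh7 again 3 higher and 1 lower, 3.51%. Of all genes, 0.877% were called higher and 1.27% lower in HepG2, and 0.942% and 0.923% in Huh7. Over both lines 6 list genes were called higher and 1 lower, where 1.90% and 2.03% of genes were. No list gene had an adjusted p under 0.05 in limma.

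Cysteine supply held 12 genes, with medians of 0.03 in HepG2 and 0.31 in Huh7, where the medians of all genes tested were -0.03 and -0.05. SLC3A2 alone was called, and fell by 1.59 (standard error 0.64, adjusted p = 1.0) in Huh7 SR. That call held in 1 of 8 fits that leave out 1 library, the one without Huh7 WT 1, at -2.63, and the value was -0.56 without Huh7 WT 2. In the list of glutathione use and turnover, 30 genes had medians of 0.27 in HepG2 and 0.36 in Huh7. MGST2, a microsomal glutathione transferase and peroxidase, stood at 52.2 and 60.3 FPKM in the HepG2 WT libraries and 81.2 and 106 in HepG2 SR, with 29.6 and 21.5 for Huh7 WT and 52.0 and 100.0 for Huh7 SR. Each SR group was above its WT group. MGST2 rose in Huh7 by 1.48 (standard error 0.41, adjusted p = 1.0) and over both lines by 1.10 (standard error 0.29, adjusted p = 0.998). The call over both lines held in all 8 fits that leave out 1 library, and that in Huh7 was lost without Huh7 SR 2, at 1.02. GGT5, a gamma-glutamyl transferase, was called lower in HepG2 SR, at -1.38, with 1.91 and 2.26 FPKM in the WT libraries against 0.392 and 0 in SR. Huh7 gave 0.000916 and 0.812 FPKM for WT, 0 and 0.447 for SR. GGT5 thus passed the filter through HepG2 WT alone, the group in which it is high, and both its calls were also made with no filter. The HepG2 call was lost without HepG2 WT 1 (-1.46), HepG2 WT 2 (-1.30) or HepG2 SR 2 (-1.15). Over both lines it was -0.77, a call that held in 2 of those 8 fits.

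CHAC1, which breaks down glutathione and is often read as a mark of ferroptotic stress, was at 12.4 FPKM in HepG2 SR 2, 46.6 FPKM in Huh7 WT 1 and 29.5 FPKM in Huh7 SR 1, and at most 0.134 FPKM in the other 5 libraries. PTGS2, also read as such a mark, was at 19.2 FPKM in Huh7 WT 1 and 2.42 FPKM in Huh7 SR 1 and at most 0.191 FPKM elsewhere. Both genes were thus expressed mainly in libraries that stand apart, with Huh7 SR 1 below Huh7 WT 1, by -0.64 for CHAC1 and -2.56 for PTGS2 on the log2 scale. Neither was called in any comparison of SR with WT.

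The 17 genes of NADPH supply and thioredoxin had medians of 0.52 in HepG2 and 0.04 in Huh7. TXN, thioredoxin, was called over both lines, at 0.65 (standard error 0.22, adjusted p = 0.998), with values of 187 and 170 FPKM in the HepG2 WT libraries and 331 and 260 in HepG2 SR, with 192 and 148 for Huh7 WT and 248 and 257 for Huh7 SR. All 4 SR libraries were above all 4 WT libraries. The call held in 2 of 8 fits that leave out 1 library, with values from 0.55 to 0.74, and was lost with quantile normalization, at 0.48.

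Selenoprotein synthesis, which supplies the selenocysteine of GPX4, had medians of 0.74 in HepG2 and 0.33 in Huh7 over 13 genes. MSRB1, a selenoprotein that reduces oxidised methionine, was called over both lines at 0.71 (standard error 0.25, adjusted p = 0.998), from 19.9 and 13.0 FPKM in HepG2 WT to 28.4 and 26.7 FPKM in HepG2 SR. Huh7 gave 13.5 and 9.99 FPKM for WT, 20.3 and 18.4 for SR. LRP8, a receptor through which cells take up selenoprotein P, was called higher in HepG2 SR at 0.97 (standard error 0.41, adjusted p = 0.956), and was 0.56 without HepG2 WT 1. In Huh7 it was not called, at -0.29. LRP8 gave 2.52 and 5.18 FPKM for HepG2 WT, 8.45 and 7.80 for HepG2 SR, and in Huh7 10.5 and 7.62 for WT, 8.09 and 6.27 for SR. Its call held in 1 of 8 fits that leave out 1 library, the one without HepG2 WT 2, and that of MSRB1 in 4.

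The 20 genes of lipophilic radical traps had medians of 0.09 in HepG2 and 0.24 in Huh7. Among them, GCH1, which makes the first precursor of tetrahydrobiopterin, stood at 61.7 FPKM in Huh7 WT 1 and 54.3 FPKM in Huh7 SR 1 and between 7.15 and 13.0 FPKM elsewhere. NQO1, a quinone reductase, measured 245 and 165 FPKM in the HepG2 WT libraries, 363 and 0.460 in HepG2 SR. In Huh7 it was at 84.6 and 66.4 FPKM in WT and at 122 and 239 FPKM in SR. Apart from HepG2 SR 2, each NQO1 value in SR was above those of WT in its line. DHODH, the mitochondrial enzyme of pyrimidine synthesis that reduces ubiquinone, was between 1.81 and 5.61 FPKM. None of these was called between SR and WT.

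In the list of polyunsaturated lipid synthesis and oxidation, 22 of 28 genes were tested, with medians of -0.03 in HepG2 and -0.12 in Huh7. FADS2, the desaturase that starts the making of long polyunsaturated chains, was called higher over both lines, at 0.88 (standard error 0.36, adjusted p = 0.998), and in HepG2 at 1.20, where it was 0.73 without HepG2 WT 1. In Huh7 FADS2 was not called, at 0.56. Both FADS2 calls were lost on the TPM scale, among other alternatives, at 1.13 in HepG2 and 0.815 over both lines, and each held in 3 of 8 fits that leave out 1 library. PEBP1, which binds lipoxygenases and directs them to phospholipids, rose in Huh7 SR by 1.40 (standard error 0.47, adjusted p = 1.0), from 123 and 99.6 FPKM to 222 and 390 FPKM. In HepG2 it was not called, at -0.26, with 454 and 353 FPKM for WT against 482 and 231 for SR. The difference between lines was called for PEBP1, at 1.66 (standard error 0.67, adjusted p = 1.0). The Huh7 call was lost without Huh7 WT 2, at 1.25, and without Huh7 SR 2, at 0.997. GNPAT, which starts ether lipid synthesis, was called over both lines at 0.63 (standard error 0.26, adjusted p = 0.998), a call that held in 2 of 8 fits that leave out 1 library.

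**Figure D3:**
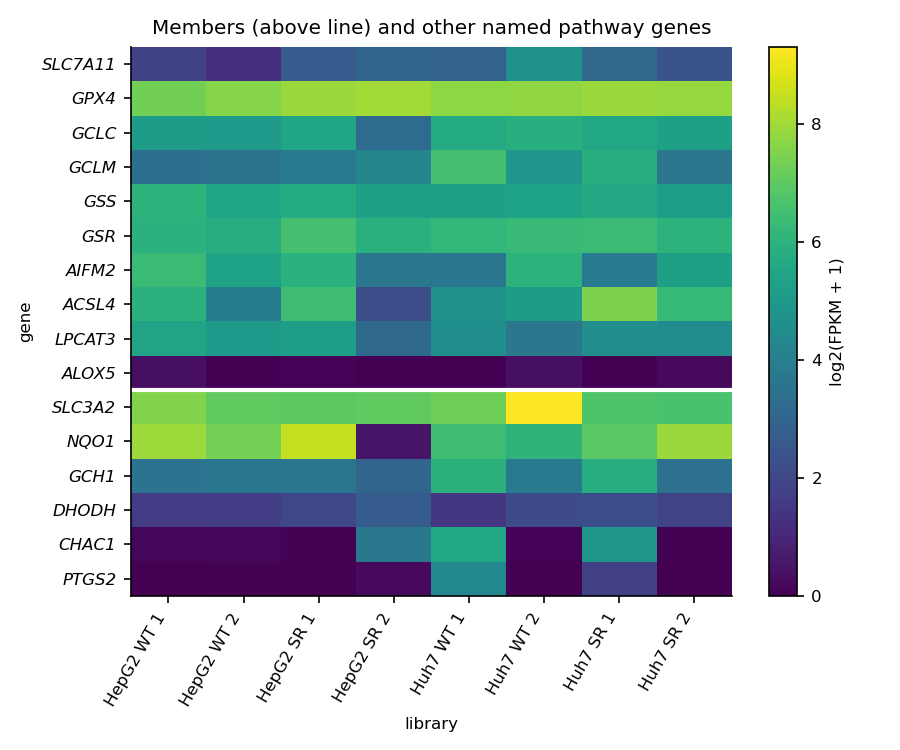
Log2(FPKM + 1) of the 10 members, above the white line, and of 6 other genes of the pathway in each library. CHAC1 and PTGS2 are on in Huh7 WT 1 and Huh7 SR 1, CHAC1 also in HepG2 SR 2, and NQO1 is low in HepG2 SR 2 alone.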

How the data were processed

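Gene expression in 8 libraries was used as FPKM, which the authors deposited per gene and library, already scaled for depth and transcript length. The submitters' processing notes name fastp 0.20.0 and GRCh38; the aligner, the counting tool and any use of strand are not given in the sources used here. The authors tested with edgeR, which needs counts and was not run here. Samples were grouped by their labels. Ensembl identifiers were turned into symbols by a table (62666 of 63241 matched), positions came from GENCODE 29 (58228 matched) and promoters from RefSeq.

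Log2(FPKM + 1) was fitted with limma 3.58.1 in R 4.3.3 (4 group means, eBayes with trend, 4 residual degrees of freedom), for the 15173 genes that reach 1 FPKM in 2 or more libraries, with two-sided p-values and Benjamini-Hochberg adjustment over all of them. The fit was tested on simulated data. A call needs an unadjusted p under 0.05 and a log2 change of 0.5 or more. Figures were drawn by matplotlib 3.10.9, tables by NumPy 2.4.6 and pandas 2.3.3, all under Python 3.11.15.

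Members and lists were chosen with earlier results of these data known. Genes named were the members, for each list and comparison of SR with WT up to 3 called genes by size of change (1 is not reported here), SLC3A2, NQO1, GCH1, DHODH, CHAC1 and PTGS2, and the 2 genes of most similar pattern for each member with an SD of at least 0.5. Alternatives were a pseudocount of 0.1, a filter at 0.1 or none, TPM, quantile normalization, separate fits, the replicate number as a block, adjusted p, leaving out each library, leaving out the 3 libraries that stand apart, and expression profile as a term.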

Additional observations from a re-analysis of the deposited data

Results flagged for a closer look

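GCLC in HepG2 SR 2, at 8.59 FPKM, lay far below the other SR libraries, at 38.2, 43.9 and 45.9 FPKM. On the log2(FPKM + 1) scale its gap to the nearest was 0.888 of the range of the 4 SR libraries, beyond the limit that Dixon's test sets at 0.05. Each of the 10 members was examined in its 4 WT and its 4 SR libraries, 20 groups at both ends, and chance alone puts about 1 in 20 such groups beyond it.

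SLC7A11 had an estimated change from WT to SR that differed between Huh7 and HepG2. The difference was -2.36 on the log2 scale (standard error 0.92, adjusted p = 1.0 from limma over 15173 genes). SLC7A11 was 1 of 9 members tested for such a difference, and the cause was not tested. The value was -1.43 without Huh7 WT 2 and -3.29 without Huh7 WT 1. Within Huh7, SR 1 minus WT 1 was 0.23 and SR 2 minus WT 2 was -2.4, in opposite directions. With the replicate number as a block, 0 members were called for this difference.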

How the results depend on the processing

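In fits that leave out 1 library, a group of 1 is assumed to vary like the others. Genes called ranged from 57 to 1749 in HepG2, 154 to 818 in Huh7, 193 to 1277 over both lines, 24 to 945 for the difference between lines and 236 to 1735 for Huh7 versus HepG2. Members called ranged from 0 to 3 in HepG2, 0 to 1 in Huh7, 0 to 1 over both lines, 0 to 3 for the difference and 0 to 2 for Huh7 versus HepG2. Log2 fold changes that turned sign ranged in HepG2 from -1.82 to 0.41 (GCLC), -0.54 to 0.00687 (GSS), -2.16 to 0.086 (AIFM2) and -2.71 to 1.49 (ACSL4). In Huh7 they ranged from -2.04 to 0.12 (GCLM), -0.15 to 0.30 (GSS), -0.22 to 0.13 (GSR), -1.43 to 0.91 (AIFM2) and -0.0898 to 0.86 (LPCAT3). Over both lines they ranged from -0.37 to 0.56 (SLC7A11), -1.10 to 0.0104 (GCLC), -0.72 to 0.36 (GCLM), -0.23 to 0.0406 (GSS), -0.0145 to 0.32 (GSR), -0.41 to 1.69 (ACSL4) and -0.82 to 0.17 (LPCAT3).

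At an adjusted p under 0.05, 0 genes and 0 members were called in each of the 5 comparisons. A filter at 0.1 FPKM gave 504 genes in HepG2 and 254 for the difference, and no filter 168 for the difference. Fitted alone, Huh7 gave 124 genes, and each line called 1 member, SLC7A11 in HepG2 and ACSL4 in Huh7. Over both lines, 1439 genes were called without the 3 libraries that stand apart and 1245 with profile as a term, which called 1 member. For Huh7 versus HepG2, either filter alternative and quantile normalization each called 1 member.

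GPX4 in Huh7 was -0.0121 with quantile normalization and GSS in Huh7 -0.015 as TPM. Over both lines, SLC7A11 was -0.66 without the 3 libraries and -0.0172 with profile as a term, and LPCAT3 was 0.38 and 0.0782. The causes were not tested. Other alternatives kept the direction of all members.

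The labels do not state that the replicate number pairs libraries. Deviations from group means correlated at 0.796 between Huh7 WT and SR, at 0.125 between HepG2 WT and SR and below 0 between lines. In Huh7 the replicate number thus went with a difference shared by WT and SR. The main fit counts that difference as spread between replicates. With the replicate number as a block, 328 genes were called in HepG2, 234 in Huh7 and 516 over both lines, 0 members for the difference and 1 for Huh7 versus HepG2.

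With 2 libraries a group, no reads and unstated strand, depth and annotation limit low genes such as ALOX5 most, and overlaps with other genes carry into GCLC, AIFM2 and LPCAT3.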

Other observations

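Some genes of the pathway lists were on or off with the profile of the library. They were chosen after their values were seen. GSTP1, a glutathione transferase, was at 775 FPKM in HepG2 SR 2, 938 FPKM in Huh7 WT 1 and 893 FPKM in Huh7 SR 1, and at most 0.148 FPKM in the other 5 libraries. ME1, a source of NADPH, was at 33.7, 49.3 and 42.4 FPKM in the same 3 libraries and at most 0.0610 FPKM in the others. FAR1, which makes fatty alcohols for ether lipids, was at 19.6 FPKM in Huh7 WT 1 and 15.9 FPKM in Huh7 SR 1 and at most 0.385 FPKM elsewhere, HepG2 SR 2 included. MBOAT2, a phospholipid acyltransferase, was at 5.88 and 4.11 FPKM in those Huh7 libraries and at most 0.285 FPKM elsewhere.

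In all, 8 of the 114 list genes tested (7.02%) stood at 1 FPKM or more in both Huh7 WT 1 and Huh7 SR 1 and under 1 FPKM in the 5 libraries that resemble each other, as did 5.89% of all genes tested. Of these 8, 5 were at 1 FPKM or more in HepG2 SR 2.

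Huh7 WT 2, the highest library for SLC7A11 and SLC3A2, was also highest for SRXN1, at 171 FPKM against 30.04 to 73.5 FPKM elsewhere, and for TXNRD1, at 176 FPKM against 48.5 to 124 FPKM. These genes, a sulfiredoxin and a thioredoxin reductase, were chosen after their values were seen, and GCLM in that library stood at 28.8 FPKM, below Huh7 WT 1.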
